A study of Saccharomyces cerevisiae with 4 samples.

Results

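SCR1, RPR1, SNR6 and SNR52 are genes of budding yeast that RNA polymerase III transcribes but that are not tRNA genes. They were taken by name from the R64 gene table, each with 300 bp on both sides, and are 4 of the 6053 gene windows used. SCR1, at 522 bp, encodes the RNA of the signal recognition particle, which directs nascent secretory proteins to the endoplasmic reticulum. RPR1, at 369 bp, encodes the RNA of RNase P, which trims the 5′ ends of tRNA precursors. SNR6, at 112 bp, encodes U6, the spliceosomal RNA at the catalytic centre. SNR52, at 92 bp, encodes a box C/D snoRNA, a guide for methylation of ribosomal RNA. SNR6 lies on chromosome XII and the other 3 on chromosome V. RPR1 and SNR52 are read from the reverse strand.

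Polymerase III is brought to most of its genes by TFIIIC, which binds short DNA elements called the A box and the B box, and by TFIIIB, which TFIIIC places just upstream of the start. The boxes lie in different places in these genes. In SCR1 they are inside the transcribed region. In RPR1 and SNR52 they lie in a leader that is transcribed and then removed, so that they are upstream of the mature RNA. In SNR6 the A box is inside the gene, the B box is downstream of the terminator and a TATA element lies upstream. The sequences of these elements were not used here.

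Chromatin from 4 strains of background yMC458 grown in YPD, a rich glucose medium, was examined by ChIP-exo, in which an exonuclease trims crosslinked DNA up to the bound protein. A strain with no TAP tag stood beside strains of genotype XRN1-TAP, DCP2-TAP and LSM1-TAP. The tag binds the IgG beads of the pull-down, so the No-TAP strain gave the background. Xrn1 is the cytoplasmic 5′ to 3′ exonuclease of decapped mRNA, Dcp2 is the decapping enzyme, and Lsm1 is a subunit of a ring that binds mRNA 3′ ends. That ring shares its other subunits with the nuclear ring that holds Lsm8 in place of Lsm1 and binds the 3′ end of U6.

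Each strain gave 1 library, and differences between strains therefore have no replicate check. The libraries held 33412 (No-TAP) to 357674 (Dcp2-TAP) tags at 4743 to 44955 distinct positions, a position being an index and a strand counted once. Tags at the same position may be PCR copies of a single fragment, so positions are given first and tags beside them. Intervals are exact, at 95%, and cover counting error only. Distances run from the first base of the gene in its direction of transcription. The build of the files is not named. The lag that put most positions upstream of start codons was 20 bp on chromosome V. On chromosome XII left of the ribosomal DNA it was 10 bp. With tRNA genes in place of start codons the lags were 0 bp and -20 bp, the latter from only 6 genes. Distances may thus be off by about 20 bp in either direction.

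At the 4 windows together, 7 positions were found in Xrn1-TAP, 24 in Dcp2-TAP and 15 in Lsm1-TAP, and the No-TAP control had 2. An even spread of each library's own positions over the nuclear genome gives 4.90, 12.0, 6.63 and 1.26. The folds were therefore 1.43 in Xrn1-TAP (0.574 to 2.94), 2.00 in Dcp2-TAP (1.28 to 2.97), 2.26 in Lsm1-TAP (1.27 to 3.73) and 1.59 in No-TAP (0.193 to 5.75). The intervals of Dcp2-TAP and Lsm1-TAP lay above 1, and those of Xrn1-TAP and No-TAP held 1. In Dcp2-TAP, 14 of the 24 positions were at RPR1. Without RPR1 the Dcp2-TAP fold was 1.15 (0.552 to 2.12). The Lsm1-TAP interval held 1 with flanks of 150 bp, at 2.07 (0.945 to 3.92), and with the gene table moved 30 bp to the left, at 1.81 (0.935 to 3.16).

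**Figure D1:**
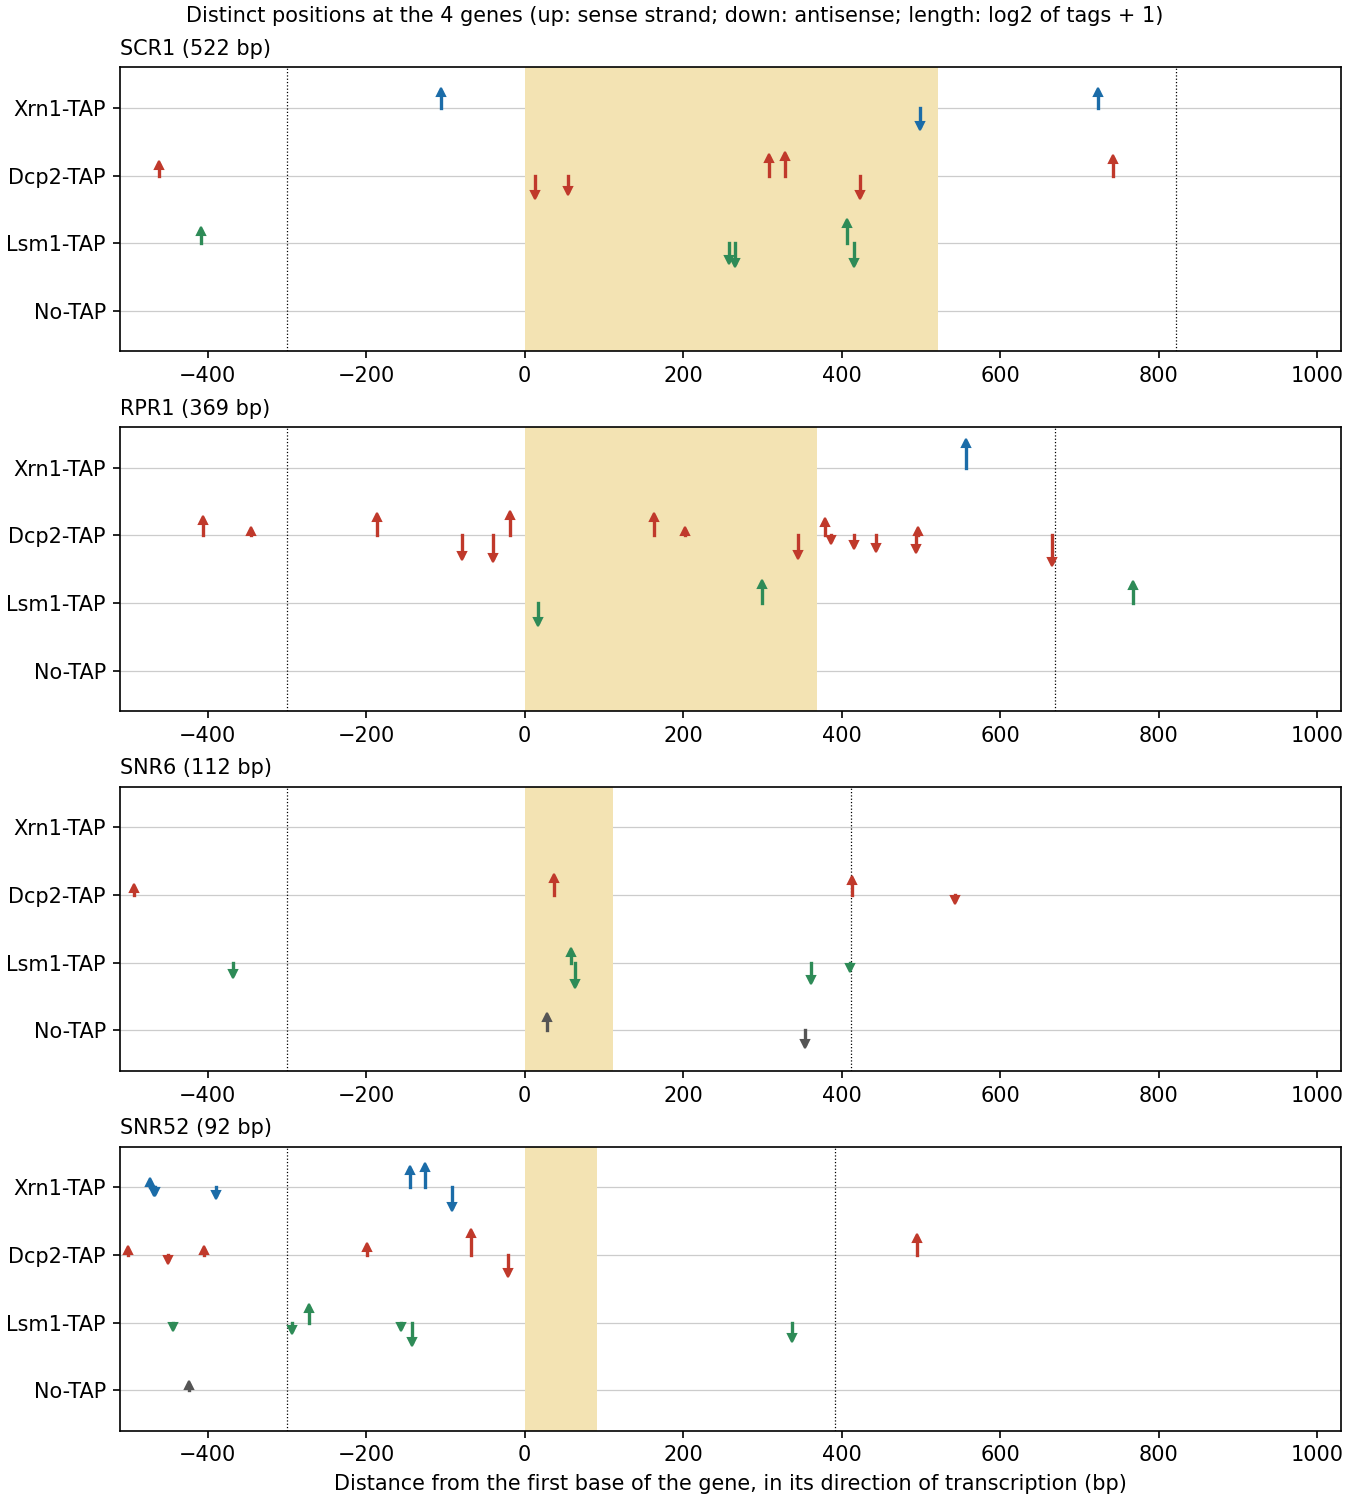
Each arrow is a distinct position at its distance in bp from the first base of the gene (x axis), in 4 libraries (rows), pointing up for the sense strand and down for the antisense strand, with a length that follows log2 of tags + 1. Shading marks the gene and dotted lines the ends of the 300 bp flanks; Dcp2-TAP has 14 positions at RPR1, and no library has a position inside SNR52.

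RPR1 had the most positions of the 4 genes, most of them in Dcp2-TAP, the library with the most positions in all. Its window held 1 position with Xrn1-TAP, 14 with Dcp2-TAP, 2 with Lsm1-TAP and 0 in the No-TAP control. The Dcp2-TAP count was 4.20 times an even spread (2.30 to 7.05), with an adjusted p of 0.000191 by an exact 1-sided Poisson test with Benjamini-Hochberg adjustment over all windows. The test asks whether a window exceeds the library's own mean density and compares no strains. RPR1 was the only one of the 4 genes called by positions in Dcp2-TAP, where 11.0% of all windows were called. By positions per kb, 95.2% of windows lay below it there.

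The Dcp2-TAP positions at RPR1 were spread over the leader side, the gene and the far side. Upstream there were 4, a sense position 186 bp before the gene with 13 tags, antisense positions 79 and 40 bp before it with 20 and 27 tags, and a sense position 19 bp before it with 19 tags. Inside the gene were 3, on the sense strand 163 and 203 bp past the start with 13 tags and 1 tag, and on the antisense strand 345 bp past the start with 17 tags. The other 7 lay downstream, 6 of them within 129 bp of the gene's end with 1 to 6 tags each. The seventh, antisense and 298 bp past the end, had 51 tags and lies inside TIM9, which encodes a chaperone of mitochondrial protein import. TIM9, on the opposite strand, comes to within 192 bp of RPR1 and covers 108 bp of the flank. Of the 183 tags of Dcp2-TAP at RPR1, 79 were upstream, 31 inside and 73 downstream. With the gene alone and no flanks RPR1 held 3 Dcp2-TAP positions, 2.36 times an even spread (0.487 to 6.91), and was not called.

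The other libraries had few positions at RPR1. Xrn1-TAP had a single sense position of 38 tags 189 bp past the gene's end. Lsm1-TAP had an antisense position 17 bp past the start with 16 tags and a sense position 299 bp past the start with 14 tags. Scaled to library totals of positions, Dcp2-TAP stood at 5.76 times Xrn1-TAP (0.876 to 243) and 3.95 times Lsm1-TAP (0.906 to 35.8), both intervals holding 1. Of the 6002 windows with a position in either library, the interval of the former ratio lay above 1 in 0.433% and below it in 0.900%. For the latter ratio these shares were 1.02% and 0.849% of 6007 windows. At the share that Dcp2-TAP had, No-TAP would have held 1.48 positions, so its 0 is not distinguishable from that share at this depth.

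SCR1 had positions in each tagged library and 0 in No-TAP. Its window, the longest of the 4 at 1122 bp, held 3 positions in Xrn1-TAP, 6 in Dcp2-TAP and 4 in Lsm1-TAP, which is 1.91 (0.393 to 5.57), 1.55 (0.571 to 3.38) and 1.88 (0.512 to 4.81) times an even spread. None was called by positions, in libraries where 5.60% (Xrn1-TAP), 11.0% (Dcp2-TAP) and 6.20% (Lsm1-TAP) of windows were.

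The placing at SCR1 differed in detail between the libraries. In Lsm1-TAP all 4 positions were inside the gene, antisense 258 and 265 bp past the start with 10 and 16 tags, sense at 407 bp with 19 tags and antisense at 415 bp with 18 tags. In Dcp2-TAP 5 of the 6 were inside, antisense at 13 and 55 bp with 17 and 8 tags, sense at 308 and 328 bp with 12 and 16 tags and antisense at 423 bp with 16 tags. The remaining Dcp2-TAP position was sense, 222 bp past the end, with 11 tags. In Xrn1-TAP 1 of the 3 was inside, antisense at 499 bp with 13 tags, and the others were sense, 105 bp upstream and 202 bp past the end, with 9 tags each. No position lay in the part of the flank that belongs to YER137C, a gene of unknown function that covers 133 bp of it.

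SNR6 was the only one of the 4 genes at which the untagged control had positions. Its window held 0 positions with Xrn1-TAP, 1 with Dcp2-TAP, 4 with Lsm1-TAP and 2 in the No-TAP control, where an even spread gives 0.999, 2.45, 1.35 and 0.256. The folds were 0.408 in Dcp2-TAP (0.0103 to 2.28), 2.96 in Lsm1-TAP (0.807 to 7.58) and 7.82 in No-TAP (0.947 to 28.2). The 0 positions of Xrn1-TAP allow a fold of up to 3.69. With the gene alone the folds of Dcp2-TAP and Lsm1-TAP were 2.60 (0.0657 to 14.5) and 9.41 (1.14 to 34.0), from 1 and 2 positions. The No-TAP control was higher still, at 24.8 (0.629 to 138) from 1 position, and the 0 of Xrn1-TAP allows up to 23.5. In the window with flanks, the folds of Dcp2-TAP and Lsm1-TAP were 0 with all positions within 100 bp of a control position left out. None was called by positions, and 1.90% of windows were called in No-TAP.

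Dcp2-TAP and Lsm1-TAP each had a position near one of the control at SNR6. No-TAP had a sense position 28 bp past the start and an antisense position 354 bp past it, with 6 tags each. The Dcp2-TAP position was sense, 37 bp past the start, with 11 tags, 9 bp from the former. An Lsm1-TAP antisense position, 362 bp past the start with 11 tags, was 8 bp from the latter. The other Lsm1-TAP positions were sense at 58 bp with 4 tags and antisense at 64 bp with 22 tags, both inside the gene, and antisense at 410 bp with 1 tag. The window ends at 411 bp, and a Dcp2-TAP sense position with 8 tags lay just outside it, at 413 bp. No position of any library lay in the 300 bp upstream of SNR6.

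SNR52 had positions on its upstream side and none inside the gene. In the 92 bp of the gene, 0 positions allow a fold of up to 28.6 in Xrn1-TAP, 11.7 in Dcp2-TAP and 21.1 in Lsm1-TAP. The empty gene is therefore not distinguishable from an even spread. Its window held 3 positions with Xrn1-TAP, 3 with Dcp2-TAP, 5 with Lsm1-TAP and 0 in the No-TAP control, which is 3.09 (0.637 to 9.03), 1.26 (0.260 to 3.68) and 3.81 (1.24 to 8.89) times an even spread in the tagged libraries. The Lsm1-TAP interval lay above 1, but the adjusted p over all windows was 0.135 (exact 1-sided Poisson test), and none was called by positions. The Lsm1-TAP fold was 1.34 (0.0340 to 7.49) with flanks of 150 bp and 2.28 (0.471 to 6.68) with the gene table moved 30 bp to the left. At the depth of Lsm1-TAP 6 positions were needed for a call at SNR52.

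All 3 Xrn1-TAP positions at SNR52 lay upstream, at most 52 bp apart, sense 144 and 126 bp before the gene with 12 and 19 tags and antisense 92 bp before it with 17 tags. All 3 of Dcp2-TAP were also upstream, sense at 199 and 68 bp with 2 and 22 tags and antisense at 21 bp with 13 tags. In Lsm1-TAP 4 of 5 were upstream, antisense at 293, 156 and 142 bp with 2, 1 and 15 tags and sense at 272 bp with 8 tags, and the fifth was antisense, 247 bp past the end, with 8 tags. No other annotated gene lies within the flanks, the nearest being PMD1 at 679 bp. Together, 10 of the 11 positions of the tagged libraries were upstream of the mature RNA and 1 downstream.

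In ChIP-exo a bound protein leaves a forward-strand position on its left and a reverse-strand position on its right. Such pairs, 10 to 49 bp apart, occurred at SNR52 once in Xrn1-TAP (34 bp apart) and once in Dcp2-TAP (47 bp apart), and at RPR1 once in Dcp2-TAP (37 bp apart). The opposite order at these distances occurred 2 times at RPR1 in Dcp2-TAP and once at SNR52 in Lsm1-TAP. At 10 to 49 bp the 2 orders were thus 3 against 3. Closer pairs in the order of a bound protein, 6 to 8 bp apart, were found at SNR6 and SCR1 in Lsm1-TAP and at RPR1 in Dcp2-TAP, and 1 in the opposite order, 3 bp apart, at RPR1 in Dcp2-TAP. At 50 to 60 bp there was 1 pair in the order of a bound protein, at SNR52 in Xrn1-TAP, and 2 in the opposite order, at RPR1 in Dcp2-TAP.

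**Figure D2:**
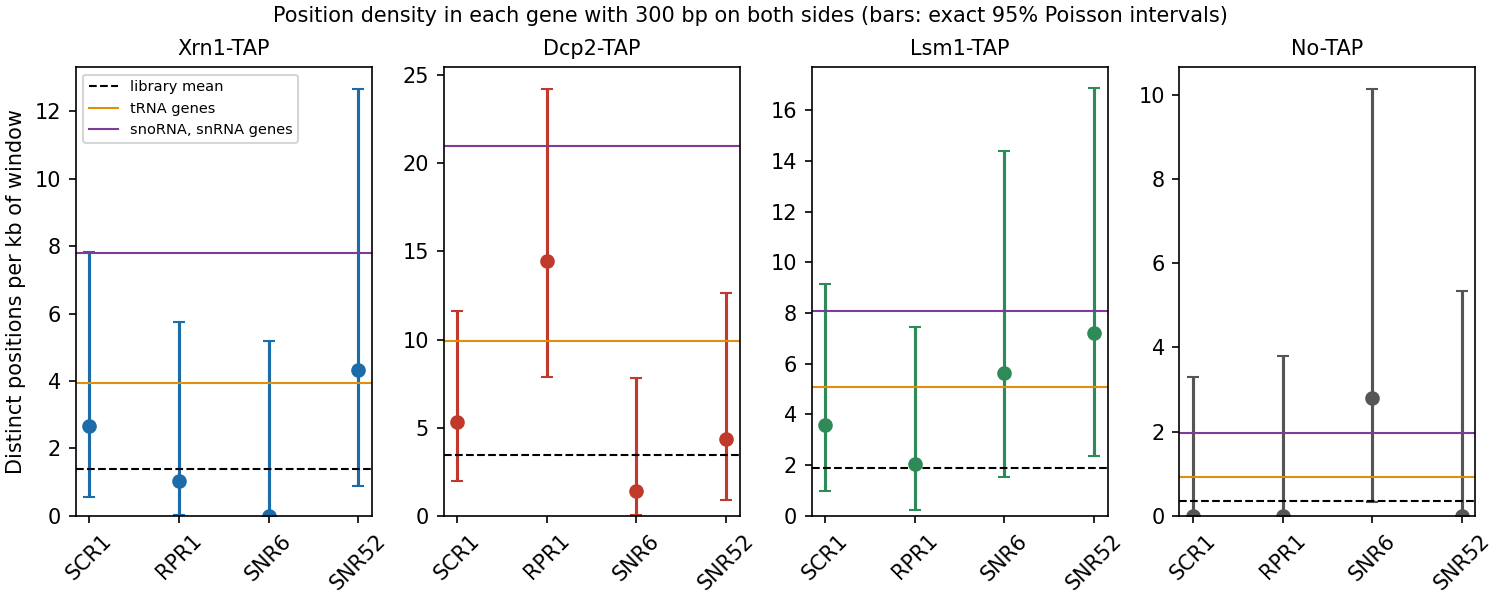
Points are distinct positions per kb in each gene with 300 bp on both sides, 1 panel per library, with exact 95% Poisson intervals for counting error; the y axes differ. Dashed lines are the library mean, orange lines the 259 tRNA gene windows and purple lines the 75 snoRNA and snRNA gene windows; at RPR1 in Dcp2-TAP and at SNR52 in Lsm1-TAP the interval lies above the dashed line.

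Across the 4 genes the order of densities differed between libraries. In Xrn1-TAP it ran from SNR52 (4.34 positions per kb) over SCR1 (2.67) and RPR1 (1.03) to SNR6 (0). In Dcp2-TAP RPR1 (14.4) came first, then SCR1 (5.35), SNR52 (4.34) and SNR6 (1.40). In Lsm1-TAP SNR52 (7.23) and SNR6 (5.62) were ahead of SCR1 (3.57) and RPR1 (2.06). Neighbours in each of these orders had overlapping intervals. In Dcp2-TAP the interval of RPR1, at the top, lay just above that of SNR6, at the bottom, while in Xrn1-TAP and Lsm1-TAP the top and bottom genes overlapped as well.

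By tags more of the 4 genes stood above an even spread. In the order Xrn1, Dcp2, Lsm1 and No-TAP, SCR1 had 31, 80, 63 and 0 tags. RPR1 had 38, 183, 30 and 0 tags. SNR6 had 0, 11, 38 and 12 tags, and SNR52 had 48, 37, 34 and 0. SCR1, RPR1 and SNR52 were called by tags in Xrn1-TAP and Dcp2-TAP, all 4 genes in Lsm1-TAP, and SNR6 in No-TAP. Of all windows, 27.1%, 30.9%, 28.4% and 18.6% were called by tags in these libraries. The test takes tags as independent, and few positions carry the tags here: the 38 tags of RPR1 in Xrn1-TAP, for example, are 1 position.

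**Figure D3:**
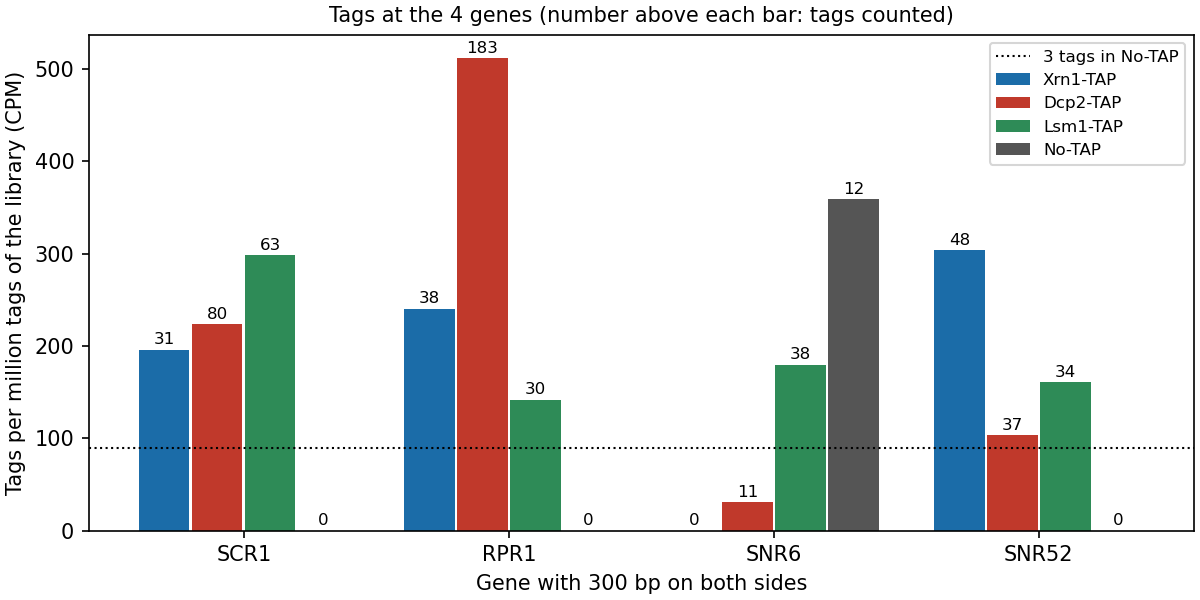
Bars give tags scaled to the library total (CPM) in each gene with 300 bp on both sides, with the number of tags counted above each bar. The dotted line is the CPM of 3 tags in No-TAP, 89.8; No-TAP has 12 tags at SNR6 and 0 at the other 3 genes.

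Set against the untagged strain by positions, the 4 genes together were at 0.898 times No-TAP in Xrn1-TAP (0.171 to 8.86), 1.27 times in Dcp2-TAP (0.314 to 11.1) and 1.40 times in Lsm1-TAP (0.326 to 12.7), scaled to library totals of positions. All 3 intervals held 1. Over the 5444, 5957 and 5692 windows with a position in either library, the interval lay above 1 in 0.0735%, 0.0336% and 0.00%. It lay below 1 in 0.496%, 0.974% and 1.07%. For none of the 4 genes alone did an interval of positions exclude 1, and the control's 0 to 2 positions set the width of these intervals.

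By tags the same ratios were 2.06 (1.14 to 4.10), 2.42 (1.37 to 4.74) and 2.17 (1.21 to 4.29), all above 1, but the control's 12 tags lay at 2 positions. Thinned to the No-TAP tag total, the interval held 1 in Xrn1-TAP (0.915 to 4.23) and Lsm1-TAP (0.776 to 3.74). Without flanks it held 1 in Dcp2-TAP (0.769 to 4.81), and the Xrn1-TAP ratio was 0.458 (0.162 to 1.47). Without RPR1 they were 1.39 (0.754 to 2.81), 0.996 (0.551 to 1.98) and 1.78 (0.986 to 3.53), all holding 1. The genes went different ways. With the control's 0 tags set to a floor of 3 per library, RPR1 was at least 2.68-fold higher in Xrn1-TAP, 5.70-fold in Dcp2-TAP and 1.58-fold in Lsm1-TAP. SCR1 was at least 2.18-fold, 2.49-fold and 3.32-fold higher and SNR52 at least 3.38-fold, 1.15-fold and 1.79-fold, in the same order. These are values at the floor, and the exact lower limits of the same tag ratios were smaller, from 0.891 (SNR52 in Dcp2-TAP, which holds 1) to 4.59 (RPR1 in Dcp2-TAP). By positions the lower limits for these genes ran from 0.00658 to 0.350, so none lay above 1. At SNR6 Dcp2-TAP was at 0.0856 times No-TAP (0.0342 to 0.212) and Lsm1-TAP at 0.501 times (0.256 to 1.05), and Xrn1-TAP had 0 tags. Of the 5444, 5957 and 5692 windows with tags in either library, tag intervals lay above 1 for 30.4%, 30.8% and 29.3%. They lay below 1 for 21.0%, 18.5% and 20.2%, so tag ratios of this kind are common.

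The positions of the 4 genes were split between the gene and its flanks differently by library, within wide intervals. The genes themselves make up 31.3% of the windows and held 1 of 7 positions with Xrn1-TAP, 9 of 24 with Dcp2-TAP, 8 of 15 with Lsm1-TAP and 1 of 2 in the No-TAP control. The Lsm1-TAP share was 53.3% (26.6% to 78.7%) and that of Xrn1-TAP 14.3% (0.361% to 57.9%), and each interval holds 31.3%. By tags, 72.1% of Lsm1-TAP tags, 35.7% of Dcp2-TAP tags and 11.1% of Xrn1-TAP tags were inside the genes. The sense strand held 71.4% of positions in Xrn1-TAP (29.0% to 96.3%), 50.0% in Dcp2-TAP (29.1% to 70.9%) and 26.7% in Lsm1-TAP (7.79% to 55.1%), all holding an even split.

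Tags per position at the 4 genes were 16.7 with Xrn1-TAP, 13.0 with Dcp2-TAP, 11.0 with Lsm1-TAP and 6.00 in the No-TAP control on average, beside 8.56, 7.96, 8.34 and 7.04 over the whole libraries. Positions with a single tag were 0 of 7, 3 of 24, 2 of 15 and 0 of 2, where 25.4%, 23.2%, 25.5% and 29.9% of all positions had a single tag.

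Few positions at the 4 genes lay near one of another library. The counts are small and were not tested against the shares over the genome, so a difference from these shares cannot be told. Of the 7 Xrn1-TAP positions 0 lay within 10 bp of a same-strand position of another library, where 21.7% of all Xrn1-TAP positions lay so near a Dcp2-TAP position and 15.8% so near an Lsm1-TAP one. Of the 15 Lsm1-TAP positions 1 lay so near a Dcp2-TAP position, beside 21.2% over the genome. That pair was at SCR1, antisense, 415 and 423 bp past the start with 18 and 16 tags. The other near pairs were the ones with No-TAP at SNR6, 1 of 24 Dcp2-TAP and 1 of 15 Lsm1-TAP positions, beside 3.90% and 4.05% of all positions of these libraries.

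The tRNA genes, also transcribed by polymerase III, were denser inside the gene. Their A and B boxes are internal, so without flanks both boxes are included, as at SCR1 but not at RPR1, SNR52 and SNR6. The comparison without flanks therefore sets unlike parts side by side. Without flanks, the 4 genes held 0.913 positions per kb with Xrn1-TAP, 8.22 with Dcp2-TAP, 7.31 with Lsm1-TAP and 0.913 in the No-TAP control. The 259 tRNA genes held 11.7, 23.1, 13.5 and 2.18 per kb. The 4 genes thus stood at 0.0783 times the tRNA genes in Xrn1-TAP (0.00197 to 0.440), 0.356 times in Dcp2-TAP (0.162 to 0.682), 0.539 times in Lsm1-TAP (0.231 to 1.08) and 0.419 times in No-TAP (0.0104 to 2.46). The intervals of Xrn1-TAP and Dcp2-TAP lay below 1. With the 300 bp flanks the ratios were 0.507 (0.203 to 1.05), 0.693 (0.443 to 1.03), 0.843 (0.470 to 1.40) and 0.618 (0.0742 to 2.27), all holding 1. By tags with flanks the 3 tagged libraries turned the other way, at 1.51 (1.24 to 1.81), 1.65 (1.47 to 1.85) and 1.66 (1.41 to 1.94). These intervals take tags as independent and are too narrow where positions are few. The 117, 311 and 165 tags of the 4 genes lay at 7, 24 and 15 positions, and 183 of the 311 were at RPR1.

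The 75 other snoRNA and snRNA genes, most of them transcribed by polymerase II, had denser windows than the 4 genes in the tagged libraries when all positions were counted. The ratio of the 4 genes to them was 0.257 in Xrn1-TAP (0.103 to 0.534), 0.327 in Dcp2-TAP (0.209 to 0.490), 0.530 in Lsm1-TAP (0.294 to 0.883) and 0.292 in No-TAP (0.0349 to 1.08). Without flanks the ratios were 0.184 (0.00461 to 1.06), 0.635 (0.286 to 1.23), 1.33 (0.557 to 2.75) and 0.768 (0.0184 to 4.86), all holding 1. With positions less than 100 bp from a control position left out they were 0.560 in Xrn1-TAP (0.223 to 1.17), 0.667 in Dcp2-TAP (0.420 to 1.01) and 0.805 in Lsm1-TAP (0.397 to 1.47), again all holding 1. RPR1 in Dcp2-TAP had 44 of these 75 genes and 52 of the 259 tRNA genes above it in positions per kb.

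The windows most like each gene over the 4 libraries were found by the summed absolute difference in positions per kb. Of the 8 named, 7 are coding genes, as are 93.6% of all windows. For SCR1 these were RPL8B, a ribosomal protein gene, at 0.568 and FAR1, a cell cycle inhibitor gene, at 0.577. For RPR1 they were SPL2, an inhibitor of phosphate uptake, at 2.11 with 2, 14, 2 and 0 positions, and RBH2 at 2.54. For SNR6 they were SLO1 at 1.67 and YCR108C at 2.26, and for SNR52 the tyrosine tRNA gene SUP7 at 0.0692 and RPS26A, a ribosomal protein gene, at 1.11. SUP7 had the same position counts as SNR52, 3, 3, 5 and 0. Its tags were fewer in the tagged libraries, 12, 15, 6 and 0 beside 48, 37, 34 and 0 at SNR52.

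Genes of proteins that make or bind these RNAs were read in the 300 bp upstream of their start codons. The lists also hold related factors: proteins of RNase MRP, TFIIIA and MAF1, the repressor of polymerase III. Of 47 such genes 44 could be measured, and 0, 2, 0 and 0 were called by positions, libraries in the same order, beside 4.50%, 10.9%, 5.91% and 0.759% of all coding genes. The mean partner gene held 0.682, 1.57, 0.750 and 0.250 positions, beside 0.854, 2.22, 1.06 and 0.225 for all coding genes, and the medians were 0.5, 1, 0.5 and 0 beside 0, 1, 1 and 0. The pair called were LHP1, the yeast La protein that binds the 3′ ends of new polymerase III transcripts, with 6 positions (adjusted p = 0.00887), and RET1, the second largest subunit of polymerase III, with 5 (adjusted p = 0.0383), both by the exact Poisson test in Dcp2-TAP. RET1 was not called with the gene table moved 30 bp to the right or the ribosomal DNA kept in the mean density, and neither was after thinning. RET1 had 1, 0 and 0 positions in Xrn1-TAP, Lsm1-TAP and No-TAP, and LHP1 had 0, 1 and 0.

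Among the lists, the proteins of the signal recognition particle had 0 of 5 measured genes called in any library, with SEC65 at 0, 4, 2 and 1 positions and SRP54, the GTPase that binds signal peptides, at 1, 1, 3 and 0. The RNase P and MRP proteins had 0 of 11, with POP1 at 1, 1, 3 and 0 and POP3 at 0, 3, 0 and 1. The U6 partners had 1 of 9, which was LHP1, with LSM3 at 2, 2, 0 and 0. TFIIIC had 0 of 6, with TFC4 at 2, 1, 1 and 0 and TFC7 at 0, 3, 1 and 0. The list of TFIIIB and TFIIIA had 0 of 4, with PZF1, which is TFIIIA, at 2, 2, 1 and 1 and BRF1, a TFIIIB subunit, at 2, 2, 0 and 0. The polymerase III list had 1 of 9, which was RET1, with RPC17 at 1, 4, 2 and 0.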

How the data were processed

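The authors deposited raw counts, per the file headers tags at each index of either strand and their sum. That an index marks a tag's 5′ end, the aligner, the build, filters, handling of duplicates and pooling of the 2 replicates that the series text names are steps not given in the sources used here. Each file was taken as 1 library. Indices were compared with the R64 gene table as they stand (lowest index 0), and strands were read from systematic names. Chromosome XI and the ribosomal DNA were left out of gene windows.

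Windows were tested against the library's mean density over 12032752 bp of nuclear genome without the ribosomal DNA (exact 1-sided Poisson test), with p adjusted by Benjamini-Hochberg and a threshold of 0.05. Ratios have exact conditional binomial, shares Clopper-Pearson and folds exact Poisson intervals at 95%. With 1 library per strain there is no p-value between strains. The procedures were tested on simulated data drawn from the Poisson model that they assume, so the model itself was not checked. Named besides the 4 genes are genes in their flanks, the 2 most similar windows of each, and the 2 partner genes of each list with most positions. Genes, lists and tests were chosen with earlier results of these data known, and leaving out RPR1 was added after seeing the data. Alternatives were other flanks, positions of at least 2 tags, distance from control positions, thinning, a moved gene table, other scaling and a filter on low counts. Python 3.11.15, numpy 2.4.6, pandas 2.3.3, scipy 1.17.1 and matplotlib 3.10.9 were used.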

Additional observations from a re-analysis of the deposited data

How the results depend on the processing

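Of 503 values recomputed under alternatives, 462 stayed within the interval or within 1.5 times the count reported. Some could not change, such as those of No-TAP under thinning, and many of the intervals are wide. The tally is therefore no measure of how firm the results are. The cause of the rest was not tested. No paired analysis was possible because each group has 1 library, and no replicate could be left out. Without flanks, no gene was called by positions in Dcp2-TAP (0) or by tags in Xrn1-TAP (0), and the Lsm1-TAP fold over an even spread was 3.85. Density against tRNA genes was then 0.0783 in Xrn1-TAP and 0.356 in Dcp2-TAP. Against other small RNA genes it was 0.635 in Dcp2-TAP and turned to 1.33 in Lsm1-TAP. The tag ratio of Xrn1-TAP to No-TAP turned to 0.458. SNR52 in Lsm1-TAP fell to 0 (0 to 21.1). The sense share became 0% in Xrn1-TAP (0% to 97.5%) and 100% in No-TAP (2.5% to 100%), each from 1 position. With 500 bp flanks 1 gene was called by positions in Xrn1-TAP. The share of all windows called was not recorded under the alternatives. Counts of genes called under them therefore stand without a background. With 150 bp flanks the share inside the genes was 88.9% in Lsm1-TAP (51.8% to 99.7%) and 100% in No-TAP (2.5% to 100%). The sense share in No-TAP was then 100% (2.5% to 100%).

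Thinned to the No-TAP tag total, 1 gene was called by tags in Dcp2-TAP and 1 in Lsm1-TAP. The share of all windows called after thinning was not recorded, so these counts cannot be told from the background. Density against tRNA genes after thinning was 1.29 in Dcp2-TAP, the share inside was 80.0% in Lsm1-TAP and 0 partner genes were called in Dcp2-TAP. With all positions closer than 100 bp to the control's left out, density against other small RNA genes was 0.560 in Xrn1-TAP and 0.667 in Dcp2-TAP, with intervals that hold 1. By tags, density against tRNA genes was 1.51 in Xrn1-TAP, 1.65 in Dcp2-TAP and 1.66 in Lsm1-TAP, that against other small RNA genes 0.511 in Dcp2-TAP, and the Dcp2-TAP fold over an even spread 3.21. With the gene table moved by 30 bp, the share inside was 0% in Xrn1-TAP (left) and 0% in No-TAP (right), and 1 partner gene was called in Dcp2-TAP (right). With the ribosomal DNA kept in the mean density 1 partner gene was called in Dcp2-TAP. Without RPR1 the Dcp2-TAP fold was 1.15 and its tag ratio to No-TAP turned to 0.996. At the depth of No-TAP, 4 positions were needed to call any of the 4 windows.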

Other observations

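Between 300 and 500 bp from SNR52 there were further positions. Xrn1-TAP had 4 there, 472, 467, 466 and 389 bp upstream of the gene, with 1 or 2 tags each. Dcp2-TAP had 3 upstream, at 500, 450 and 405 bp, with 1 tag each, and 1 of 11 tags 404 bp past the end. Lsm1-TAP had 1 at 443 bp upstream and No-TAP 1 at 423 bp upstream, with 1 tag each. That of No-TAP was its only position within 500 bp of SCR1, RPR1 or SNR52. With 500 bp flanks the window called by positions in Xrn1-TAP was that of SNR52. The share of all windows called with such flanks was not recorded, so this call cannot be set against it.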
